A study of Danio rerio with 14 samples.

Results

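The beta and gamma crystallins are the structural proteins that fill the fibre cells of the lens, where they are packed at high concentration and hardly replaced once a fibre has matured. Both families are built from the same fold of Greek key motifs. Beta crystallins assemble into oligomers and are divided by charge into acidic (cryba genes) and basic (crybb genes) members, whereas gamma crystallins stay monomeric. Fish carry a large group of methionine-rich gamma crystallins (crygm genes) beside gamma N, whose gene structure lies between both families, and gamma S, which fish share with mammals. Every measured gene whose current symbol starts with cryb or cryg was taken, which gave 42 of 8445 genes and 68 of 16913 probes. There were 9 beta crystallins (7 acidic, 2 basic) and 32 gamma crystallins (20 of the gamma M2 group, whose symbols start with crygm2, 7 other gamma M, 2 gamma N and 3 gamma S). The remaining gene, crybgx, was put in neither family. The annotation lists 58 such genes, and the other 16 are not measured here.

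The eyes came from wild-type AB zebrafish larvae that were kept from shortly after fertilization in clean water or in 350 mg/L PTU (propylthiouracil). PTU blocks the synthesis of thyroid hormone. The 4 groups were control and PTU-exposed larvae at 5 dpf (days post fertilization), the last day of exposure, and control and formerly PTU-exposed larvae at 8 dpf, when all had spent a further 3 days in clean water. There were 3 RNA extracts per group, pooled from the eyes of 10 larvae each, so that neither single larvae nor single lenses can be compared. The 12 extracts were hybridised on 14 two-colour arrays, with control 5 dpf replicate 1 and PTU 5 dpf replicate 1 on 4 arrays each and the others on 2. Levels are log2 values relative to the mean of the 3 control 5 dpf extracts. Log2 fold changes carry the standard error (±) from a limma fit of all 14 arrays, and a gene was called (rose or fell) at a Benjamini-Hochberg adjusted p under 0.05 over all 8445 genes. This error uses each gene's own residual variance, drawn towards that of all genes. The ratio of extract to array variance (0.138) was taken as common to all genes. Whether it holds for the crystallins was not tested. The crystallins varied more, with a median SD between extracts of a group of 0.195 to 0.379 against 0.0973 to 0.133 over all genes. Calls were also tested with limma on the 12 extract levels. These levels were estimated together from the 14 arrays, so the error of an array enters the levels of more than 1 extract. Neither this fit nor the overlap of extracts given below allows for that. Of 18 genes listed for lens fibre cells, 13 were among the measured genes. Why the others were absent was not examined.

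At 5 dpf, nearly all beta and gamma crystallins had lower levels with PTU. In this comparison 40 of the 42 genes fell, as did 22.8% of all genes. All 9 beta crystallins and 30 of the 32 gamma crystallins were among them, as was crybgx. A single gene, the gamma S crystallin crygs2, rose (24.2% of all genes did), and crygs4 was not called. The median log2 fold change was −1.60 for beta crystallins (range −2.44 to −0.92), which is 33.0% of the control level, and −2.18 for gamma crystallins (range −2.81 to 0.27), which is 22.1%. The median over all genes was −0.00139. In 41 of the 42 genes the 3 PTU extracts all lay below the 3 control extracts, which held for 25.2% of all genes. With limma on the extract levels 40 fell and none rose. PTU 5 dpf replicate 2 was the lowest of its group in 36 genes, all 9 beta crystallins among them. In RNA from whole eyes, fewer lens cells and less of a transcript per cell cannot be told apart.

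The gamma crystallins were not alike at 5 dpf. The 20 gamma M2 members had a median of −2.31 and the 7 other gamma M members one of −2.04 (range −2.71 to −0.43), both below that of the beta crystallins. The 2 gamma N and 3 gamma S crystallins together had a median of −0.96 (range −1.81 to 0.27), above it. Taken apart, gamma S had a median of −0.21, and gamma N one of −1.57, close to that of the beta crystallins (−1.60). Of the gamma N members, crygn1 (−1.81) lay below the beta median and crygn2 (−1.33) above it. Over the 12 gamma crystallins outside gamma M2 the median was −1.40, also above the beta median. The lower median of the whole gamma family thus rested on the gamma M2 group. Within each extract, the gamma median minus the beta median was −0.36, −0.66 and −0.77 in the PTU 5 dpf extracts and −0.30, −0.12 and 0.40 in the control 5 dpf extracts. The PTU extracts were thus the lower ones, but PTU replicate 1 was close to control replicate 1. At 8 dpf the same value was −0.07, −0.47 and −0.38 with PTU and 0.11, −0.33 and −0.41 in controls, and the groups overlapped. These medians describe the classes and were not tested.

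**Figure D1:**
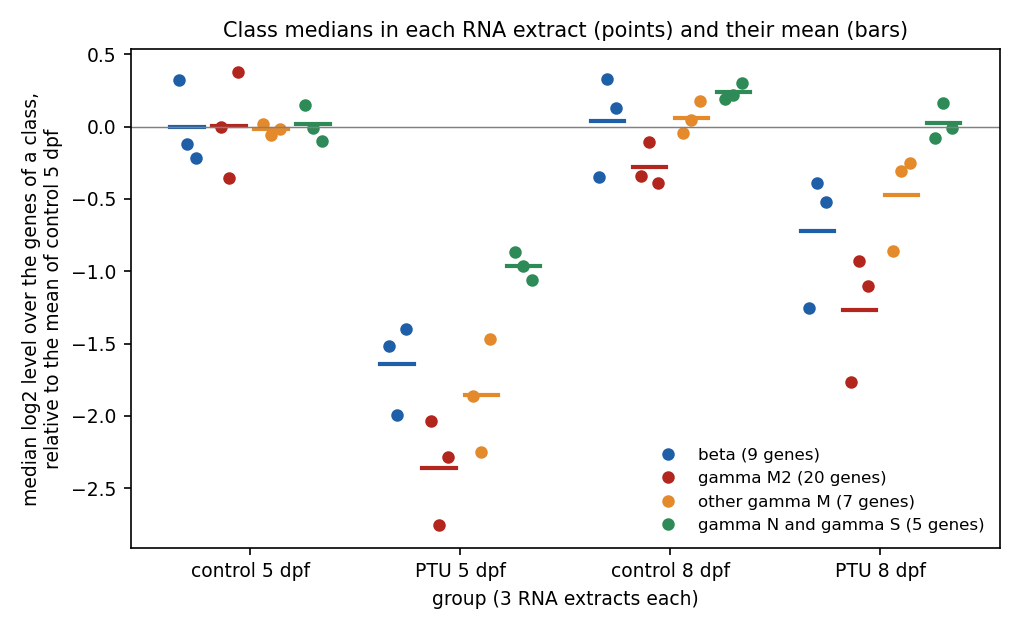
Median log2 level (y axis, relative to the mean of the control 5 dpf extracts) over the 9 beta, 20 gamma M2, 7 other gamma M and 5 gamma N and gamma S crystallins in each RNA extract (points) of the 4 groups (x axis), with bars for the mean of 3 extracts. The means of the 4 classes are lowest in PTU 5 dpf, where that of gamma M2 is the lowest and that of the pooled gamma N and gamma S genes the highest. In PTU 8 dpf the means lie between those of PTU 5 dpf and control 8 dpf.

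At 8 dpf, after 3 days in clean water, the crystallins were still lower in formerly exposed eyes, by less. Of the 42 genes, 31 fell (13.2% of all genes did), crygs2 again rose (19.6% of all genes did), and 10 gamma crystallins were not called. All 9 beta crystallins fell, with a median of −0.74 (59.7% of control), and 21 of the 32 gamma crystallins, with a median of −0.87 (54.7%). Over the 12 gamma crystallins outside gamma M2 the median was −0.67, above that of the beta crystallins. The PTU extracts all lay below the controls in 30 genes (14.7% of all genes), among them 7 beta and 22 gamma crystallins. The count depended on PTU 8 dpf replicate 1, the lowest of its group in 40 of the 42 genes. Without that extract 16 genes fell and 1 rose (5 beta and 11 gamma crystallins and crybgx called), the beta median was −0.46 and the gamma median −0.60. The extract was on 2 arrays, and the one shared with control 8 dpf replicate 2 had the largest residual spread of all arrays. With only this array left out 26 genes fell and 1 rose, the beta median was −0.60 and the gamma median −0.69. Whether the extract or this array set the low values was not tested. With limma on the extract levels 23 fell and 1 rose, with 5 of the 9 beta crystallins called. With only the arrays that pair both groups, which are fewer, 17 fell and 1 rose, with 5 beta crystallins called. Among the genes described singly below, the calls at 8 dpf of cryba1l2, cryba2b, crybb1l2, crygm2d8, crygm2d11, crygm3 and crygs3 were lost there (adjusted p = 0.053 to 0.169).

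The PTU effect differed between the ages in 25 of the 42 genes, by the test of the difference itself. In 24 of them it was more positive at 8 than at 5 dpf (11.9% of all genes), and in crygs4 it was more negative (6.92% of all genes). The 24 comprised 5 of the 9 beta and 19 of the 32 gamma crystallins. The median difference was 0.81 for beta and 1.23 for gamma crystallins, but 0.73 for the 12 gamma crystallins outside gamma M2. This count varied when single extracts were left out, and was 7 without control 5 dpf replicate 1. It was 11 without PTU 5 dpf replicate 1, control 8 dpf replicate 3 or PTU 8 dpf replicate 3. It was 16 without control 8 dpf replicate 1, 15 without PTU 8 dpf replicate 2, and 34 with replicate 1 of PTU 8 dpf left out. Omitting either replicate 1 extract of 5 dpf takes 4 arrays out and cuts the residual degrees of freedom from 11 to 7. With each extract left out in turn, the median difference stayed positive. It ranged from 0.61 to 1.15 for beta and from 1.01 to 1.47 for gamma crystallins. Why the count moved was not tested. With limma on the extract levels 16 genes were more positive and none more negative.

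In control eyes few crystallins were called from 5 to 8 dpf. The gamma M crystallins crygm1 (1.13 ± 0.14) and crygm7 (0.77 ± 0.13), the gamma S crystallin crygs4 (1.11 ± 0.12) and the beta crystallin cryba1l2 (0.66 ± 0.14) rose, where 4.67% of all genes did. None fell by limma (7.05% of all genes fell), and 5 genes in all had an unadjusted p under 0.05. Without control 5 dpf replicate 1, which takes 4 arrays out, crygs4 alone was called. With PTU 8 dpf replicate 1 left out the count was 7, with 4 higher and 3 lower. In formerly exposed eyes, 24 crystallins rose from 5 to 8 dpf (8.77% of all genes) and none fell (6.69% of all genes), 34 having an unadjusted p under 0.05. They comprised 7 of the 9 beta and 16 of the 32 gamma crystallins and crybgx. The number called was 6 without control 5 dpf replicate 1, 5 without PTU 5 dpf replicate 1, 9 without PTU 8 dpf replicate 2, 6 without PTU 8 dpf replicate 3 and 30 with limma on the extract levels. This comparison and that of the PTU effects share extracts and are no independent evidence of each other.

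**Figure D2:**
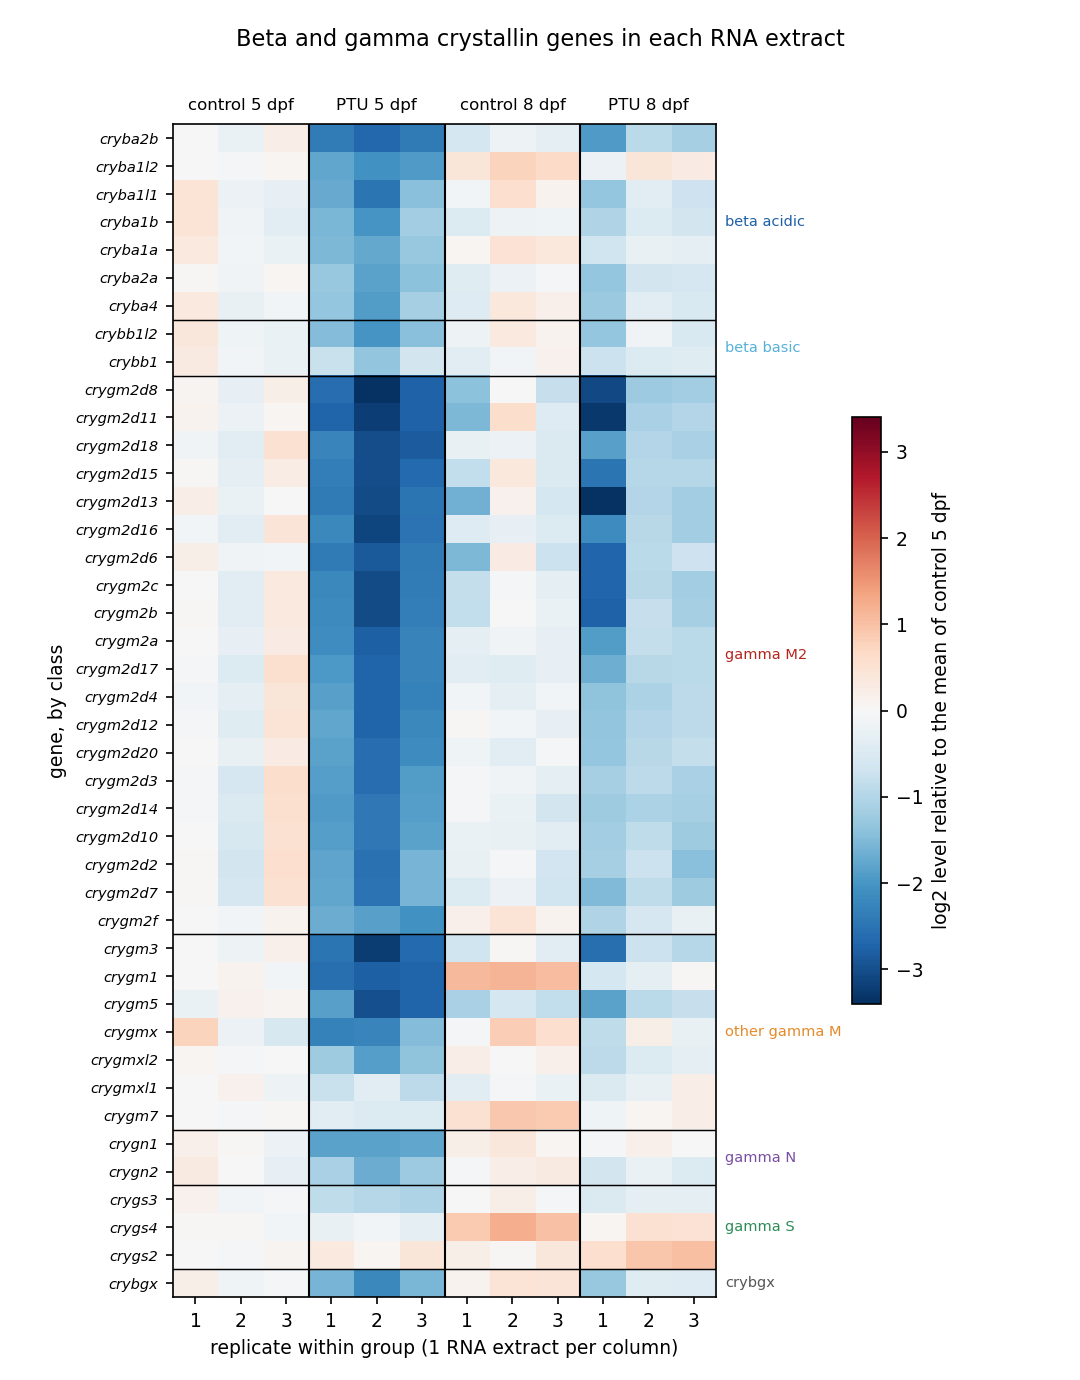
Log2 level (colour, relative to the mean of the control 5 dpf extracts) of the 42 crystallin genes (rows, by class) in the 12 RNA extracts (columns, 3 per group). PTU 5 dpf is blue in nearly every row except crygs2 and crygs4, and PTU 8 dpf replicate 1 is darker than the other PTU 8 dpf extracts in most rows.

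Among the acidic beta crystallins, cryba2b on chromosome 9 had the lowest fold change at 5 dpf and cryba4 on chromosome 10 the highest. The levels of cryba2b were 0.01, −0.22 and 0.21 in control 5 dpf, −2.37, −2.68 and −2.40 in PTU 5 dpf, −0.61, −0.16 and −0.31 in control 8 dpf, and −1.91, −0.92 and −1.12 in PTU 8 dpf. The PTU extracts lay below the controls at both ages without overlap. The log2 fold change was −2.44 ± 0.20 at 5 dpf (limma, adjusted p = 1.6e-07, 18.5% of control) and −1.01 ± 0.22 at 8 dpf (adjusted p = 0.00245, 49.5%). The difference between the ages was called (1.42 ± 0.29, adjusted p = 0.00423). The levels of cryba4 were 0.34, −0.25 and −0.09 in control 5 dpf, −1.32, −1.90 and −1.12 in PTU 5 dpf, −0.43, 0.35 and 0.17 in control 8 dpf, and −1.25, −0.37 and −0.52 in PTU 8 dpf. PTU and control were apart at 5 dpf and overlapped at 8 dpf, where control replicate 1 was below PTU replicate 2. Its fold change was −1.42 ± 0.17 at 5 dpf (adjusted p = 6.3e-06) and −0.81 ± 0.19 at 8 dpf (adjusted p = 0.00378). With limma on the extract levels the latter was not called (adjusted p = 0.0746).

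The paralogs cryba1l1 and cryba1l2 had nearly the same fold change at 5 dpf and lay apart at 8 dpf, at the ends of the acidic members' range. The levels of cryba1l1 (chromosome 14) were 0.48, −0.20 and −0.28 in control 5 dpf, −1.72, −2.48 and −1.43 in PTU 5 dpf, −0.10, 0.57 and 0.13 in control 8 dpf, and −1.31, −0.39 and −0.69 in PTU 8 dpf. Its log2 fold change was −1.86 ± 0.21 at 5 dpf (limma, adjusted p = 4.8e-06) and −1.04 ± 0.24 at 8 dpf (adjusted p = 0.00356), 27.5% and 48.7% of control. The levels of cryba1l2 (chromosome 1) were −0.03, −0.03 and 0.05 in control 5 dpf, −1.77, −2.05 and −1.93 in PTU 5 dpf, 0.42, 0.75 and 0.64 in control 8 dpf, and −0.20, 0.41 and 0.29 in PTU 8 dpf. PTU extracts of both genes were below the controls at both ages, but at 8 dpf PTU replicate 2 of cryba1l2 came close to the lowest control. The fold change of cryba1l2 was −1.88 ± 0.10 at 5 dpf (adjusted p = 2.0e-09) and −0.48 ± 0.11 at 8 dpf (adjusted p = 0.00341), 27.2% and 71.8% of control. Without PTU 8 dpf replicate 1 its value at 8 dpf was −0.28 and not called (adjusted p = 0.0648). The age difference of this effect on cryba1l2 was 1.40 ± 0.15 (adjusted p = 2.8e-05). That on cryba1l1, with a larger standard error, did not pass the test of the difference (0.82 ± 0.32, adjusted p = 0.0878). The paralogs were not tested against each other, so a call in only 1 of them does not show that they differ. The other 3 acidic members, cryba1a, cryba1b and cryba2a, had fold changes of −1.60 to −1.47 at 5 dpf and −0.74 to −0.50 at 8 dpf, and all fell at both ages.

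Of the basic beta crystallins, crybb1 moved least of all beta crystallins at 5 dpf. In humans, variants of CRYBB1 are known from hereditary cataract. The levels of crybb1 (chromosome 10) were 0.30, −0.09 and −0.21 in control 5 dpf, −0.77, −1.34 and −0.63 in PTU 5 dpf, −0.35, −0.10 and 0.14 in control 8 dpf, and −0.73, −0.48 and −0.41 in PTU 8 dpf. All PTU extracts were below the controls, at 8 dpf by a narrow margin. The log2 fold change was −0.92 ± 0.16 at 5 dpf (limma, adjusted p = 2.3e-04, 52.8% of control) and −0.48 ± 0.18 at 8 dpf (adjusted p = 0.0495). The call at 8 dpf was lost with limma on the extract levels (adjusted p = 0.131), and without control 5 dpf replicate 1 or any of the 6 extracts of 8 dpf. The levels of crybb1l2 (chromosome 1) were 0.38, −0.15 and −0.23 in control 5 dpf, −1.47, −2.00 and −1.41 in PTU 5 dpf, −0.17, 0.33 and 0.11 in control 8 dpf, and −1.31, −0.11 and −0.50 in PTU 8 dpf. At 8 dpf PTU replicate 2 lay above control replicate 1. The fold change was −1.60 ± 0.19 at 5 dpf (adjusted p = 5.8e-06) and −0.79 ± 0.21 at 8 dpf (adjusted p = 0.00871), and the latter was −0.41 and not called without PTU 8 dpf replicate 1 (adjusted p = 0.152), nor was it called with limma on the extract levels (adjusted p = 0.0798). For neither basic member was a difference between the ages called, with values of 0.44 ± 0.24 for crybb1 (adjusted p = 0.218) and 0.81 ± 0.28 for crybb1l2 (adjusted p = 0.0568).

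All 20 gamma M2 crystallins fell at 5 dpf, with log2 fold changes of −2.81 to −1.85, and in all 20 the PTU extracts lay below the controls. At 8 dpf 13 fell and 7 were not called, with fold changes of −1.48 to −0.75. The lowest at 5 dpf was crygm2d8, with levels of 0.08, −0.29 and 0.21 in control 5 dpf, −2.60, −3.36 and −2.74 in PTU 5 dpf, −1.40, −0.02 and −0.78 in control 8 dpf, and −3.06, −1.22 and −1.19 in PTU 8 dpf. Its fold change was −2.81 ± 0.31 at 5 dpf (limma, adjusted p = 3.6e-06, 14.3% of control). At 8 dpf it was −1.20 ± 0.35 (adjusted p = 0.0152) with overlapping extracts, and the call was lost without control 5 dpf replicate 1, control 8 dpf replicate 2 or PTU 8 dpf replicate 1 (−0.45 without the last, adjusted p = 0.182), and with limma on the extract levels (adjusted p = 0.113). The lowest at 8 dpf was crygm2d11, with levels of 0.12, −0.20 and 0.08 in control 5 dpf, −2.72, −3.21 and −2.74 in PTU 5 dpf, −1.52, 0.60 and −0.43 in control 8 dpf, and −3.27, −1.11 and −0.999 in PTU 8 dpf. Its fold change was −2.79 ± 0.39 at 5 dpf (adjusted p = 3.2e-05) and −1.48 ± 0.43 at 8 dpf (adjusted p = 0.0158). The latter was −0.61 and not called without PTU 8 dpf replicate 1 (adjusted p = 0.0752), was not called without control 5 dpf replicate 1 (adjusted p = 0.0607), and was not called with limma on the extract levels (adjusted p = 0.117).

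The wide spread of these 2 genes at 8 dpf was shared by part of the gamma M2 group. In 5 members (crygm2b, crygm2d6, crygm2d8, crygm2d11 and crygm2d13) the groups overlapped at 8 dpf, where control 8 dpf replicate 1 was low, at −1.63 to −0.83. PTU 8 dpf replicate 1 was low in the same 5 genes, at −3.35 to −2.69, whereas PTU 8 dpf replicates 2 and 3 lay between −1.22 and −0.71. These 5 genes were picked out after their values were seen, and the pattern was not theirs alone. Without overlap, crygm2d15 and crygm2c had −0.84 and −0.81 in control 8 dpf replicate 1, and −2.49 and −2.70 in PTU 8 dpf replicate 1. Both extracts were hybridised together on the same array, which gives only the difference between them. Its residual spread (0.177) was among the smallest. The array of PTU 8 dpf replicate 1 with control 8 dpf replicate 2 had the largest (0.344). Over all genes, the deviations of control and PTU 8 dpf replicate 1 from their group means correlated (r = 0.627). Whether an array set the low values was not tested.

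At the other end of the group, crygm2f had the highest fold change at 5 dpf and crygm2d2 at 8 dpf. The 2 probes of crygm2f differed at 5 dpf (−2.41 and −1.27). The probe at −2.41 was assigned by accession, and that at −1.27 by symbol only. By the lower probe alone crygm2f would not be the highest, since crygm2d7 had −1.91. The levels of crygm2f were −0.01, −0.10 and 0.11 in control 5 dpf, −1.70, −1.84 and −2.05 in PTU 5 dpf, 0.18, 0.46 and 0.13 in control 8 dpf, and −1.02, −0.56 and −0.25 in PTU 8 dpf. PTU and control did not overlap at either age, and the fold change was −1.85 ± 0.13 at 5 dpf (limma, adjusted p = 4.1e-08) and −0.89 ± 0.14 at 8 dpf (adjusted p = 2.3e-04). The levels of crygm2d2 were 0.05, −0.62 and 0.57 in control 5 dpf, −1.80, −2.55 and −1.58 in PTU 5 dpf, −0.25, −0.06 and −0.66 in control 8 dpf, and −1.14, −0.72 and −1.43 in PTU 8 dpf. Its controls at 5 dpf were spread more widely than those of crygm2f. The fold change was −1.92 ± 0.38 at 5 dpf (adjusted p = 6.6e-04) and −0.75 ± 0.42 at 8 dpf (adjusted p = 0.192).

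The 7 other gamma M crystallins all fell at 5 dpf but were less alike, with log2 fold changes of −2.71 to −0.43. The levels of crygm3 were 0.01, −0.17 and 0.16 in control 5 dpf, −2.49, −3.23 and −2.64 in PTU 5 dpf, −0.67, 0.05 and −0.36 in control 8 dpf, and −2.57, −0.72 and −0.98 in PTU 8 dpf. This course was close to that of the gamma M2 group. The fold change of crygm3 was −2.71 ± 0.25 at 5 dpf (limma, adjusted p = 6.6e-07) and −1.20 ± 0.28 at 8 dpf (adjusted p = 0.00434), the latter not called with limma on the extract levels (adjusted p = 0.0632). The levels of crygm1 were −0.02, 0.12 and −0.10 in control 5 dpf, −2.55, −2.78 and −2.73 in PTU 5 dpf, 1.1, 1.15 and 1.05 in control 8 dpf, and −0.59, −0.31 and 0.03 in PTU 8 dpf. Controls rose with age and PTU extracts stayed far below them. The fold change of crygm1 was −2.69 ± 0.10 at 5 dpf (adjusted p = 9.3e-11, 15.5% of control) and −1.41 ± 0.11 at 8 dpf (adjusted p = 2.3e-07, 37.7%), and the age difference of this effect was 1.28 ± 0.15 (adjusted p = 6.6e-05). In PTU-exposed eyes crygm1 rose by 2.41 ± 0.14 between the ages, the highest value of the 42 genes.

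In contrast to crygm1, crygm7 and crygmxl1 moved little at 5 dpf. The levels of crygm7 were 0.03, −0.06 and 0.03 in control 5 dpf, −0.39, −0.46 and −0.47 in PTU 5 dpf, 0.51, 0.90 and 0.88 in control 8 dpf, and −0.14, 0.06 and 0.23 in PTU 8 dpf. Its log2 fold change was −0.43 ± 0.09 at 5 dpf (limma, adjusted p = 0.00125) and −0.74 ± 0.10 at 8 dpf (adjusted p = 4.7e-05), without overlap at either age. The difference between the ages was not called (−0.32 ± 0.14, adjusted p = 0.121). The levels of crygmxl1 were 0.02, 0.16 and −0.17 in control 5 dpf, −0.76, −0.38 and −0.90 in PTU 5 dpf, −0.35, −0.06 and −0.23 in control 8 dpf, and −0.50, −0.25 and 0.22 in PTU 8 dpf. It was lower with PTU at 5 dpf (−0.70 ± 0.13, adjusted p = 3.2e-04), while at 8 dpf the groups overlapped (0.01 ± 0.14, adjusted p = 0.97). Among the others, crygm5 and crygmx fell by more at 5 dpf (−2.41 and −2.04) than crygmxl2 (−1.48), and crygm5 was not called at 8 dpf (−0.39).

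Both gamma N crystallins fell at 5 dpf. The levels of crygn1 (chromosome 2) were 0.16, 0.03 and −0.19 in control 5 dpf, −1.82, −1.82 and −1.78 in PTU 5 dpf, 0.19, 0.39 and 0.06 in control 8 dpf, and −0.08, 0.16 and −0.01 in PTU 8 dpf. The separation at 5 dpf was wide with hardly any spread among PTU extracts, and at 8 dpf the groups overlapped. The log2 fold change of crygn1 was −1.81 ± 0.08 at 5 dpf (limma, adjusted p = 4.5e-10, 28.6% of control) and −0.18 ± 0.09 at 8 dpf (adjusted p = 0.127, 88.1%), the latter called without control 8 dpf replicate 3 (−0.31, adjusted p = 0.0376). Its PTU effect thus differed by 1.62 ± 0.12 between the ages (adjusted p = 8.0e-07), the smallest p of the 42 genes in this comparison. Only 1 probe measured crygn1, and in the annotation this gene overlaps the protein-coding gene ly97.3. The levels of crygn2 (chromosome 24) were 0.29, −0.01 and −0.28 in control 5 dpf, −1.11, −1.70 and −1.24 in PTU 5 dpf, −0.07, 0.22 and 0.30 in control 8 dpf, and −0.63, −0.24 and −0.45 in PTU 8 dpf. PTU extracts of crygn2 were below the controls at both ages. Its fold change was −1.33 ± 0.13 at 5 dpf (adjusted p = 8.0e-07) and −0.63 ± 0.14 at 8 dpf (adjusted p = 0.00321), the latter not called when its most variable probe alone was used (−0.34, adjusted p = 0.254).

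The 3 gamma S crystallins were not alike, though they were not tested against each other. The levels of crygs3 were 0.15, −0.08 and −0.07 in control 5 dpf, −0.87, −0.97 and −1.06 in PTU 5 dpf, −0.02, 0.20 and −0.04 in control 8 dpf, and −0.48, −0.33 and −0.30 in PTU 8 dpf. It followed the majority, with log2 fold changes of −0.96 ± 0.08 at 5 dpf (limma, adjusted p = 1.5e-07) and −0.42 ± 0.09 at 8 dpf (adjusted p = 0.00149). The levels of crygs4 were 0.05, 0.05 and −0.10 in control 5 dpf, −0.25, −0.10 and −0.31 in PTU 5 dpf, 0.88, 1.24 and 1.00 in control 8 dpf, and 0.06, 0.51 and 0.49 in PTU 8 dpf. Controls rose with age and PTU extracts lay below them at 8 dpf, while at 5 dpf the lowest control and the highest PTU extract were nearly equal. Its fold change was −0.21 ± 0.09 at 5 dpf (adjusted p = 0.0653) and −0.71 ± 0.10 at 8 dpf (adjusted p = 6.0e-05, 61.2% of control). The value at 5 dpf was called without PTU 8 dpf replicate 1 or any control 8 dpf extract (adjusted p = 0.0131 to 0.0418). It was also called with only the arrays that pair both groups (adjusted p = 0.0109) and without the array of largest residual spread (adjusted p = 0.0245). The same held with arrays as independent (adjusted p = 0.0346) and with the replicate number as a block (adjusted p = 0.0425). Between the ages this effect differed by −0.50 ± 0.13 (adjusted p = 0.0168), not called with limma on the extract levels (adjusted p = 0.146).

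The levels of crygs2 were −0.01, −0.07 and 0.08 in control 5 dpf, 0.34, 0.07 and 0.40 in PTU 5 dpf, 0.21, 0.05 and 0.39 in control 8 dpf, and 0.58, 0.96 and 1.02 in PTU 8 dpf. It was the crystallin with higher levels in PTU-exposed eyes, without overlap at 8 dpf and with PTU replicate 2 among the controls at 5 dpf. Only 1 probe measured crygs2, which in the annotation overlaps the protein-coding gene lcmt2. The log2 fold change was 0.27 ± 0.08 at 5 dpf (limma, adjusted p = 0.011) and 0.59 ± 0.09 at 8 dpf (adjusted p = 9.6e-05, 151% of control). At 5 dpf the call was lost without PTU 5 dpf replicate 1 (adjusted p = 0.133) or replicate 3 (adjusted p = 0.0659), with a dye effect in the fit (adjusted p = 0.0534) and with limma on the extract levels (adjusted p = 0.139). The levels of crybgx (chromosome 7) were 0.21, −0.14 and −0.07 in control 5 dpf, −1.59, −2.20 and −1.56 in PTU 5 dpf, 0.11, 0.45 and 0.45 in control 8 dpf, and −1.30, −0.42 and −0.44 in PTU 8 dpf. It was lower with PTU at both ages without overlap, at −1.76 ± 0.15 (adjusted p = 3.0e-07) and −1.12 ± 0.17 (adjusted p = 1.3e-04).

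**Figure D3:**
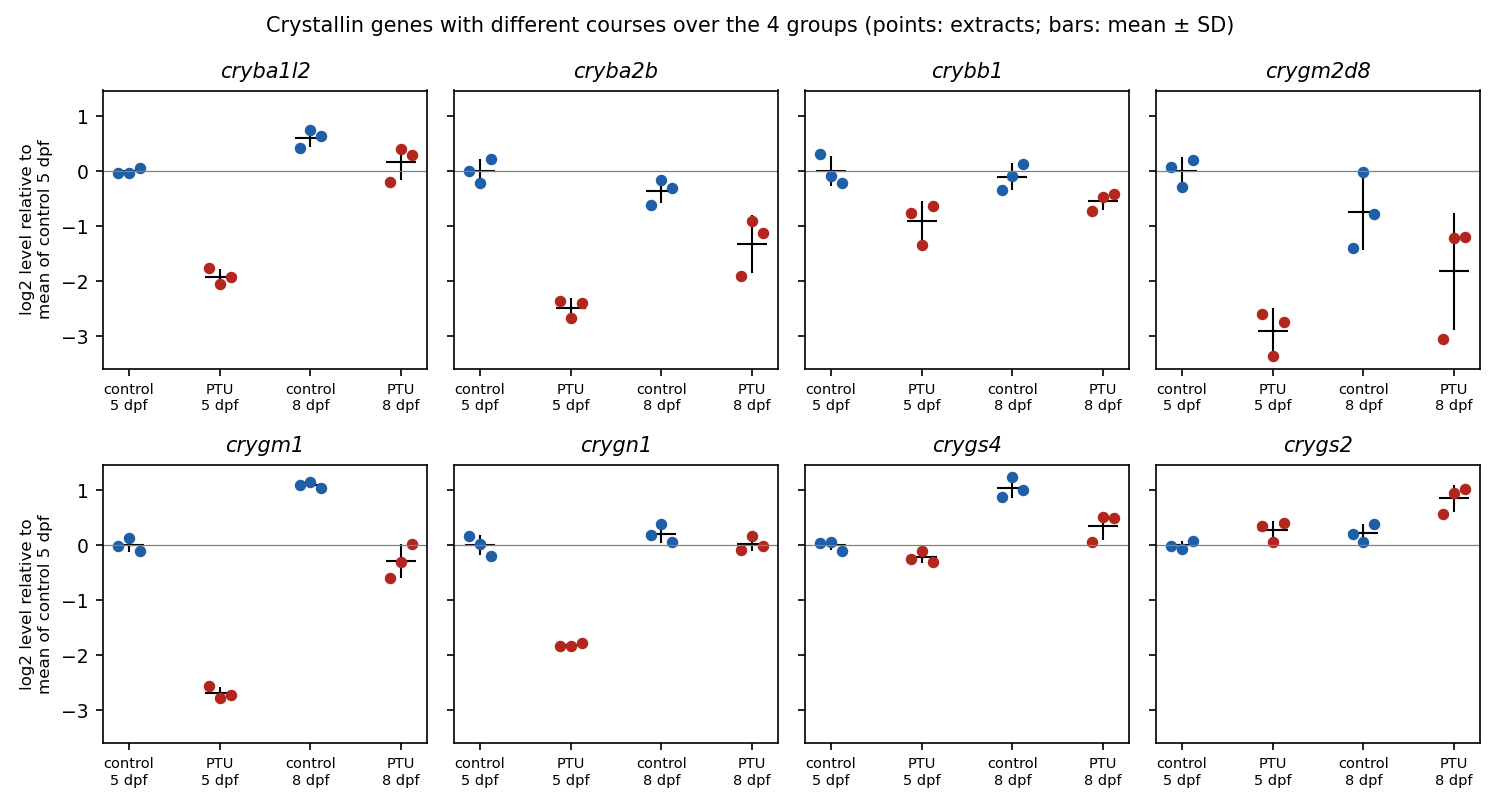
Log2 level (y axis, relative to the mean of the control 5 dpf extracts) of 8 crystallin genes in the 4 groups (x axis), with points for the 3 RNA extracts of a group (blue control, red PTU) and bars for mean ± SD. At 5 dpf PTU lies far below control except in crygs4 and crygs2, and at 8 dpf crygn1 is near its control whereas crygm1 is not.

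**Figure D4:**
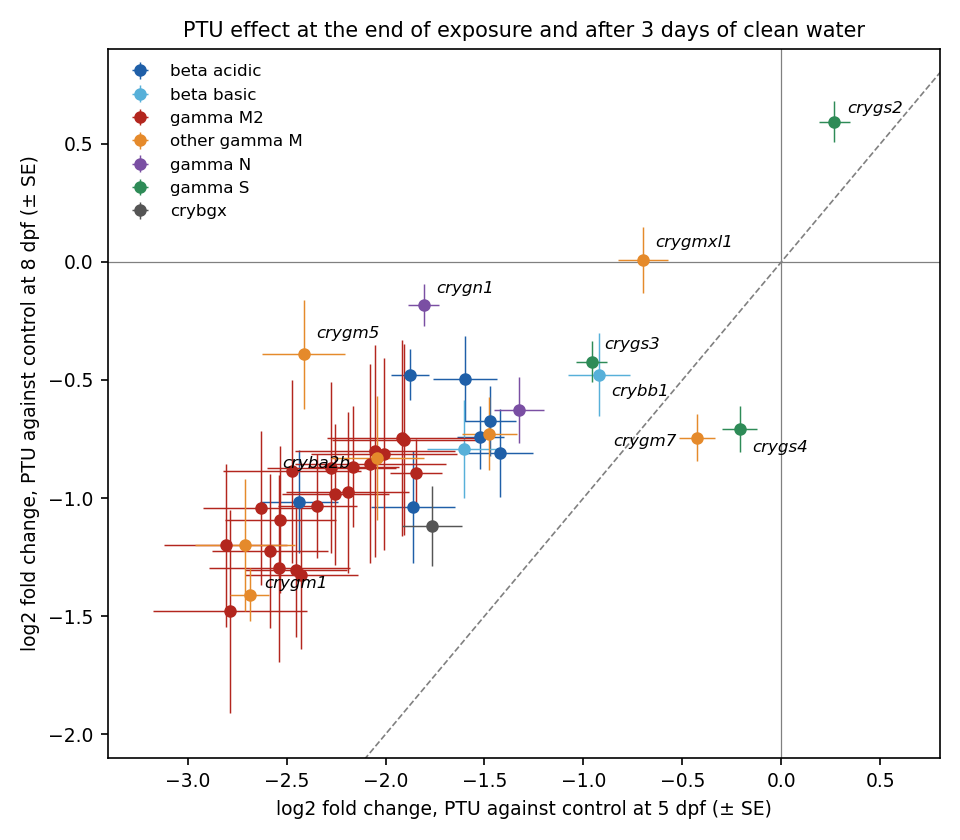
Log2 fold change of PTU against control at 5 dpf (x axis) and at 8 dpf (y axis) for the 42 crystallin genes (points, coloured by class, ± SE of the limma fit). The dashed line marks equal effects, and the points below it, crygm7 and crygs4, have more negative values at 8 than at 5 dpf.

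The calls for single genes in the test of the difference between the ages were of unequal stability. Those of cryba1l2, cryba2b, crygm1, crygm2f and crygn1 were kept with each extract left out in turn. That of crygs3 (0.54 ± 0.11, adjusted p = 0.00509) was lost without control 5 dpf replicate 1. Those of crygm3 (1.51 ± 0.38, adjusted p = 0.0123) and crygmxl1 (0.71 ± 0.19, adjusted p = 0.0165) were lost without control 5 dpf replicate 1, PTU 5 dpf replicate 1, control 8 dpf replicate 3 or PTU 8 dpf replicate 3, and with limma on the extract levels. That of crygn2 (0.70 ± 0.19, adjusted p = 0.018) was lost without control 5 dpf replicate 1, control 8 dpf replicates 1 or 3, or PTU 8 dpf replicates 2 or 3, and with limma on the extract levels. That of crygs4 was lost without control 5 dpf replicates 1 or 3, PTU 5 dpf replicates 1 or 2, or PTU 8 dpf replicate 1. That of crygm2d8 (1.61 ± 0.47, adjusted p = 0.0262) was kept only without control 5 dpf replicate 2, control 8 dpf replicate 2 or PTU 8 dpf replicate 1.

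Most of the gamma crystallins are neighbours. In the annotation 34 crystallin genes follow one another on chromosome 9 from crygm7 to crygs3, with 3 other protein-coding genes among them, and 27 of the 34 were measured. The gamma M2 genes nearer the crygm7 end had the lower log2 fold changes: over the 20 measured, Spearman's rho between order and fold change was 0.729 at 5 dpf and 0.782 at 8 dpf. The 10 from crygm2c to crygm2d14 had a median of −2.49 at 5 dpf and −1.21 at 8 dpf, and the 10 from crygm2d16 to crygm2f −2.12 and −0.88. Over all 27 measured genes of the stretch, rho was 0.336 at 5 dpf and 0.491 at 8 dpf. The order was examined after the values were known and was not tested, and the 2 comparisons describe the same genes. These genes are close paralogs, so that signal from a gene and cross-hybridisation from its neighbours cannot be told apart, and their probes are not independent measurements. In the annotation crygm3 overlaps crygs4, which had a different course (above).

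**Figure D5:**
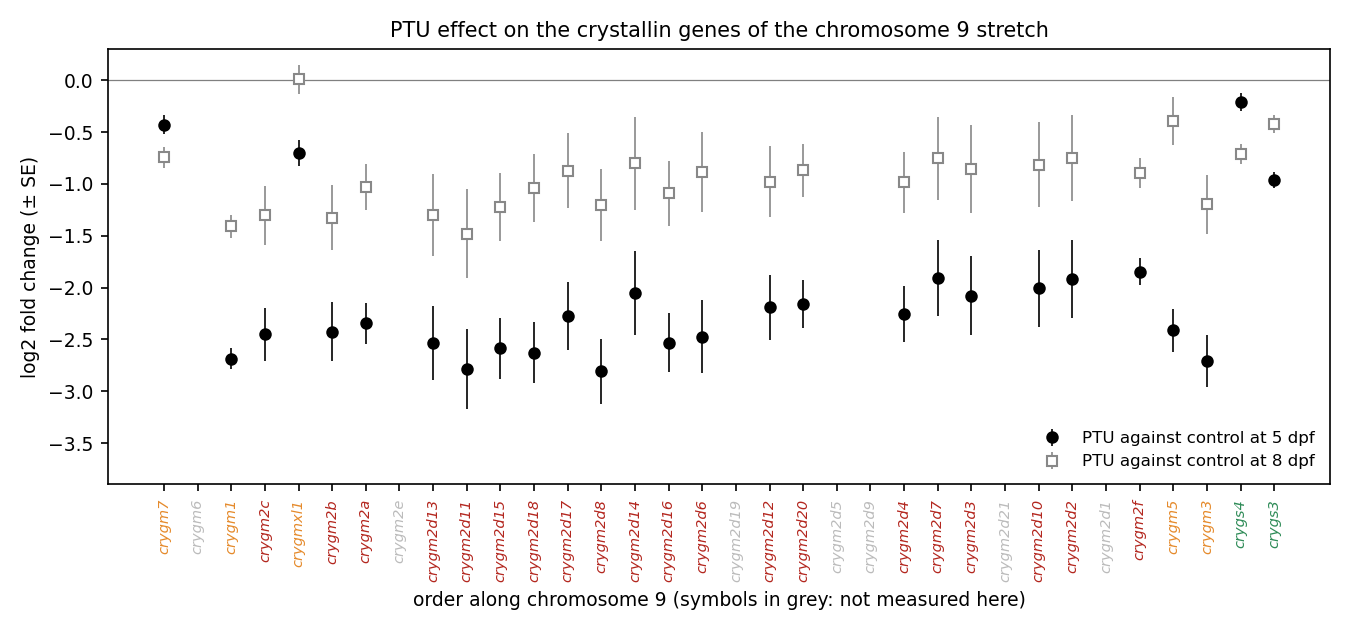
Log2 fold change of PTU against control (y axis, ± SE of the limma fit) at 5 dpf (filled circles) and 8 dpf (open squares) for the 27 measured crystallin genes of the chromosome 9 stretch, in their order (x axis, not to genomic scale, symbols coloured by class). Values of the gamma M2 genes are lower towards the crygm7 end, and crygm7, crygmxl1, crygs4 and crygs3 lie closest to 0 at 5 dpf.

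Different probes of a crystallin gene moved in the same direction, though by unequal amounts. Single probes (transcripts) were called by limma where the adjusted p over all 16913 probes was under 0.05 and the change was beyond 0.75 in either direction on the log2 scale. At 5 dpf 63 of the 68 crystallin probes were lower (4.88% of all probes) and none was higher, with all 24 beta probes and 38 of the 43 gamma probes among them. At 8 dpf 36 were lower (2.57% of all probes), 10 of the 24 beta and 25 of the 43 gamma probes. Of the 19 genes with more than 1 probe, none had probes of opposite sign at either age. The fold changes of a gene's probes at 5 dpf differed by a median of 0.305 between the lowest and the highest. The gap was over 1 in 2 genes, namely crygm2f, whose probes gave −2.41 and −1.27, and crybb1l2, whose probes gave −2.13 and −1.06. At 8 dpf the largest gap was 0.573, in cryba1a (−1.03 and −0.46). There the probes of cryba1b gave −0.73 (limma, adjusted p = 0.047) and −0.27 (adjusted p = 0.231). The crybb1 probes at −0.37 and −0.34 had adjusted p = 0.157 and 0.12 by limma, and its other probes were under 0.05.

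Of the 13 other genes of lens fibre cells, 11 fell and 1 rose at 5 dpf (median −1.85), where 22.8% of all genes fell and 24.2% rose. At 8 dpf 8 fell and 2 rose (median −0.54), against 13.2% and 19.6% of all genes. The fall of cryaa, which encodes the chaperone alpha A crystallin, was −2.13 ± 0.11 at 5 dpf (limma, adjusted p = 2.0e-09), but at 8 dpf it was higher with PTU (0.36, adjusted p = 0.0357). The galectin-related grifin fell at both ages (−2.44 and −0.97), as did mipa, which encodes a water channel of fibre membranes (−2.05 and −0.33). In contrast, lim2.2 rose at both ages (0.68 and 0.41), and gja8b was called at neither (−0.11 and −0.02). The medians of the 13 genes in single extracts were −2.11 to −1.65 in PTU 5 dpf, −0.48 to −0.26 in PTU 8 dpf, −0.08 to 0.10 in control 5 dpf and −0.17 to 0.22 in control 8 dpf. Of 13 measured transcription factors of the developing lens, 5 fell and 1 rose at 5 dpf (median −0.26), and none fell and 2 rose at 8 dpf (median 0.10). The share that rose was below that of all genes at both ages. Those that fell at 5 dpf included pax6a (−0.56), pax6b (−0.55) and sox1b (−0.64), and mafbb rose (0.53).

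Markers of other cells of the eye, or left on it after dissection, moved with the groups too. At 5 dpf, where 22.8% of all genes fell and 24.2% rose, 6 of 9 photoreceptor genes fell and none rose, and 3 of 5 genes of retinal neurons fell and none rose. Of 8 pigment cell genes 7 fell and 1 rose (tyrp1b, 0.47), of 8 genes of surface epithelium 5 fell and 1 rose (cdh1, 1.77), and 3 of 4 macrophage genes rose. At 8 dpf, where 13.2% of all genes fell and 19.6% rose, all 4 macrophage genes rose, while 4 photoreceptor genes fell and 1 rose (median 0.05), 3 pigment cell genes fell and 2 rose (median −0.05), 1 gene of retinal neurons fell and 1 rose (median −0.17), and 5 genes of surface epithelium fell and 1 rose (median −0.62). The median of the macrophage genes was −0.10 to 0.04 in the control 5 dpf extracts, 1.1 to 1.23 in PTU 5 dpf, 0.09 to 0.13 in control 8 dpf and 2.2 to 2.47 in PTU 8 dpf, without overlap. That of the photoreceptor genes was −0.44 to 0.34 in control 5 dpf, −1.28 to −0.74 in PTU 5 dpf, −1.14 to −0.89 in control 8 dpf and −1.71 to −0.82 in PTU 8 dpf, overlapping at 8 dpf. Of 8 genes of striated muscle 1 rose at 5 dpf and none was called at 8 dpf. The part of a changed cell make-up of the eyes in the crystallin values was not tested.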

How the data were processed

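RNA from larval eyes had been labelled with Cy5 or Cy3 and hybridised on Agilent zebrafish arrays. The authors deposited log2 ratios of Cy5 to Cy3. They had left out spots near the local background on all arrays, corrected the background (normexp) and normalized within arrays (loess) in limma 3.34.4. Single-channel intensities were not used, so signal over background is unknown here; precision is limited by how many arrays there are. Slide and scan batches are not given in the sources used here. Dyes in the labels set the direction: at 5 dpf, arrays pairing PTU and control with exchanged dyes ran oppositely (r of −0.595 or below across probes). With directions turned to match, r between arrays pairing PTU and control was 0.595 to 0.833 at 5 dpf and 0.404 to 0.785 at 8 dpf.

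Probes were assigned to genes through accessions or symbols of the GRCz12tu annotation, without coordinates; 66 crystallin probes matched by accession and 2 by symbol, and probes of a gene were averaged. Of the table, 1 control probe was left out. Gene contrasts were fitted in limma 3.58.1 (R 4.3.3) over all 14 arrays, with the extract as a random effect (variance ratio 0.138) and 11 residual degrees of freedom. Single probes were tested with arrays as independent, a choice made here, and with the study's thresholds on fold change and adjusted p. Extract levels came from least squares over the arrays. Steps were tested on simulated data.

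Genes given with every extract are, in the acidic beta, basic beta, gamma M2 and other gamma M classes, those with the lowest and highest fold change at each age, all gamma N, gamma S and unclassified members, the 2 with the smallest p for a difference between the ages in each direction, and members called against their class. The members, marker lists and tests were chosen with earlier results of these data known. Alternatives were array centring and scaling, a dye effect, arrays as independent, robust moderation, the most variable probe, fold limits, only arrays pairing both groups, the replicate number as a block, signs turned, each extract left out in turn, and the array with the largest residual spread (PTU 8 dpf replicate 1 against control 8 dpf replicate 2) left out. Limma on the 12 extract levels was added after the data were seen.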

Additional observations from a re-analysis of the deposited data

Results flagged for a closer look

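The PTU effect differed between 5 and 8 dpf, by the fit's own test of the difference, in 25 crystallin genes. Among the genes given with all extracts, the difference (log2 fold change at 8 dpf minus that at 5 dpf) was 1.62 for crygn1, 1.61 for crygm2d8, 1.51 for crygm3, 1.42 for cryba2b, 1.40 for cryba1l2, 1.28 for crygm1, 0.952 for crygm2f, 0.708 for crygmxl1, 0.702 for crygn2 and 0.537 for crygs3. It was −0.499 for crygs4, the gene whose PTU effect was more negative at 8 dpf. Groups of 3 extracts are too small for a test of single outlying extracts.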

How the results depend on the processing

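With PTU at 5 dpf the number of crystallins called ranged from 40 to 42 with each extract left out, the beta median from −1.76 to −1.39 and the gamma median from −2.41 to −2.05. At 8 dpf the number called, 32, was 21 when a change beyond 0.75 on the log2 scale was also required, 18 with only the arrays that pair both groups, and 17 to 33 with each extract left out. The beta median ranged from −0.81 to −0.46 and the gamma median from −1.02 to −0.60, with the value nearest 0 in each without PTU 8 dpf replicate 1. For the difference between the ages the count of 25 ranged from 7 to 34 with each extract left out and was 16 with limma on the extract levels. In control eyes the count of 4 ranged from 1 to 7, and the gamma median between the ages, −0.18, from −0.41 to −0.0052. In PTU-exposed eyes the count of 24 ranged from 5 to 33, the beta median from 0.69 to 1.06 and the gamma median from 0.74 to 1.37. Crystallin probes called at 8 dpf were 19 in place of 36 when the limit on the log2 scale was 1.

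The replicate numbers are not known to pair extracts: correlations of same-numbered extracts ran from −0.232 to 0.627. With the replicate block, 15 genes were called for PTU-exposed eyes between the ages in place of 24, and no other count moved by over 1.5 times. With all signs turned the medians reversed by construction, to 1.60 for beta and 2.18 for gamma crystallins at 5 dpf, 0.74 and 0.87 at 8 dpf, −0.81 and −1.23 for the difference, −0.87 and −1.05 in PTU-exposed eyes and 0.18 for gamma crystallins in control eyes. Signs were not turned for single genes. The value of crygmxl1 at 8 dpf, not called, turned to −0.041 with only the arrays that pair both groups, −0.12 without control 8 dpf replicate 3, −0.07 without PTU 5 dpf replicate 1 and −0.18 with replicate 3 of PTU 8 dpf left out, and the highest value with 1 extract left out was 0.21. Of 1510 values of the genes given with all extracts under the alternatives, 1363 kept their side of the threshold and their direction, 134 were no longer called, 9 became called and 4 changed sign. Where a count moved, the cause was not tested, except that leaving out an extract removes 2 to 4 arrays.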
